A study of Homo sapiens with 5 samples.

Results

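Cells rich in transcripts of DNA replication genes were compared with cells poor in them, plate by plate. The members were single SW480 cells, chosen by a score that summed the UMIs (unique molecular identifiers, 1 per captured mRNA molecule) of 9 genes, MCM2 to MCM7, PCNA, TYMS and RRM2, per 10,000 human UMIs of the cell. Within each plate, the 20% of cells with the highest score formed the top class and the 40% with the lowest score the bottom class, and the remaining cells formed the middle class. A well counted as a cell if it showed over 2000 genes and if mitochondrially encoded genes held under 25% of its UMIs, as 826 of 1920 wells did. The top class held 165 of these cells, the bottom class 330 and the middle class 331, so 495 of 826 cells were compared with each other.

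SW480 is a cell line from a primary human colorectal adenocarcinoma. Cells carrying a lentiviral GFP were injected into zebrafish embryos, whose immune defence at this age is innate. Tumors were dissected 1 day (1 dpi) or 4 days (4 dpi) after injection, about 100 tumors were mixed in a pool, and single cells were sorted by FACS into 384-well plates for SORT-seq, a plate-based method that counts transcripts by UMI from their 3′ ends. Libraries 6, 7 and 8 were the 3 plates of 1 dpi and libraries 10 and 11 the 2 plates of 4 dpi. There was no untreated group, and the sources leave unstated if the plates of 1 time point were filled from 1 pool or several. Cells of a plate are not replicates, so each plate gave 1 value per class and p-values measure the spread between plates, which may be technical.

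A cell copies its genome once per cycle, in S phase. The MCM2 to MCM7 proteins form the helicase that is loaded onto origins in G1, PCNA is the sliding clamp that holds polymerases on DNA, and RRM2 and TYMS supply deoxynucleotides. Many of these genes are activated by E2F transcription factors once cyclin-dependent kinases release them from retinoblastoma proteins at the end of G1, whereas the genes of G2 and mitosis are activated later in the cycle.

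The score itself is a description and was not tested. Over all cells, median scores were 6.41, 6.56 and 6.18 in the 1 dpi libraries (6, 7, 8) and 8.72 and 7.97 in the 4 dpi libraries (10, 11). Median scores of the top class lay between 20.6 and 25.3 over the 5 libraries and those of the bottom class between 2.85 and 4.62. The lowest scores inside the top class were 15.8, 17.4, 13.1, 16.7 and 18.6 in libraries 6, 7, 8, 10 and 11, and the highest scores just outside it were 15.6, 16.7, 13.1, 16.6 and 18.4. The bottom class ended at scores of 4.97, 5.11, 4.68, 7.52 and 6.14, and the next cells had 5.05, 5.20, 4.74, 7.63 and 6.30. The classes are therefore ranges of a continuous score, with no gap at either border, as the plot of scores by cell shows.

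**Figure D1:**
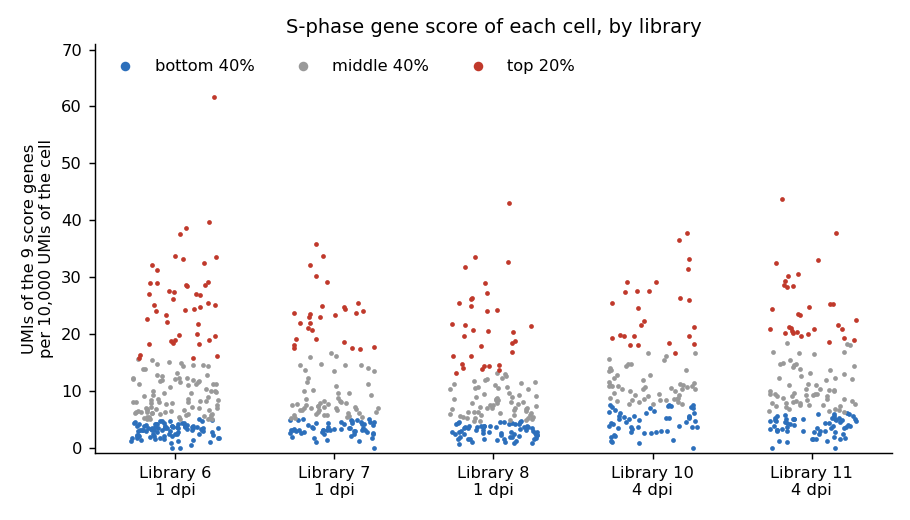
Each point is 1 of the 826 cells, placed by library (x axis) and by its summed UMIs of the 9 score genes per 10,000 UMIs (y axis), coloured by class. In every library the classes meet without a gap, and library 6 holds the cell with the highest score, 61.7.

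MCM7 gave 37.4% of all score UMIs and PCNA 20.5%, so these genes weigh most in the choice of cells. MCM3 had a mean of 165 CPM in top and 23.8 CPM in bottom cells, PCNA 518 and 75.5 CPM, and RRM2, the most uneven, 239 and 9.29 CPM. TYMS was nearly absent, at 2.67 and 0.359 CPM, with 26 UMIs in the 826 cells and no row in library 7, and the score rested in practice on 8 genes. The TYMS gene overlaps ENOSF1 on the opposite strand over 3261 of its 15926 bases (GENCODE annotation of GRCh38), and whether the counting used strand is not stated, so a read there could be given to either gene. ENOSF1 differed between classes by 0.59 ± 0.16 on the log2 scale (adjusted p = 0.00566). Of the 165 top cells, 144 (87.3%) were also in the top 20% by the MCM genes alone and 124 (75.2%) by PCNA, TYMS and RRM2 alone. In all, 104 (63.0%) were in the top 20% by both, so that the separate parts of the score chose partly different cells.

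Top cells held more RNA than bottom cells. Median UMIs per cell were 37680, 38749 and 38089 in the top class at 1 dpi and 36532 and 22742 at 4 dpi. In the bottom class they were 23910.0, 29191 and 21050.0 at 1 dpi and 23290.0 and 16787 at 4 dpi. The top class was 0.60 ± 0.18 higher on the log2 scale (SD, n = 5 libraries), a ratio of 1.52, and higher in 5 of 5 libraries. From means over cells in place of medians the difference was 0.39. Genes detected per cell were higher by 0.26 ± 0.12 on the log2 scale. Each well also held ERCC spike-in RNA, a fixed amount of synthetic transcripts, and human UMIs per ERCC UMI were 0.45 ± 0.21 higher on the log2 scale in the top class, again in 5 of 5 libraries. The cell's UMI total is the denominator of the score, so these values are descriptions and no test of them is quoted. All gene comparisons that follow are of shares of a class's UMIs, so they describe the make-up of the RNA and not its amount per cell.

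The libraries held between 4487175 and 7632953 human UMIs, and ERCC rows took 1.30% to 3.57% of UMIs. Well names are shared by all libraries because the same 384 barcodes were used on each plate, and 15 well names passed in all 5 libraries. Marker counts are given over the top and bottom classes together, without the middle class. Of 18 epithelial and colon genes, 17 were detected, with 85258 UMIs in all. Reads were mapped to the human reference, so markers of other cell types are no measure of zebrafish host cells. Of 20 hematopoietic genes 7 were at 0, PTPRC, the pan-leukocyte marker, had 2 UMIs in the bottom class and 0 in the top class, and the list summed to 349 UMIs. Its summed level lay between 7.64 and 28.5 CPM in the top class and between 11.7 and 39.4 CPM in the bottom class. Of 14 fibroblast and endothelial genes 4 were at 0, and the list summed to 500 UMIs, of which LUM took 336. Its summed level lay between 16.9 and 40.4 CPM in the top class and between 20.6 and 72.0 CPM in the bottom class.

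Outside the score genes, 9814 genes were tested between the top and bottom classes with the library as a block. With edgeR's quasi-likelihood test and a Benjamini-Hochberg adjusted p under 0.05, 3967 genes were called (40.4%), of which 1983 (20.2% of those tested) were higher in top cells and 1984 (20.2%) lower. The classes of 1939 genes (19.8%) did not overlap, meaning that every library's top value lay on one side of every library's bottom value, and in 1051 of them (10.7%) the top class was higher. Large rises were more frequent than large falls. By at least 2 on the log2 scale, 154 genes (1.57%) were higher and 19 (0.194%) lower, while by at least 1 the counts were 530 (5.4%) and 419 (4.27%). The even split of calls rests on the scaling. Without TMM scaling 1357 genes were higher and 2648 lower, with the median of all genes at −0.15, and scaled to ERCC UMIs 3505 were higher and 749 lower, with the median at 0.27, against −0.02 with TMM. Changes are therefore given relative to the bulk of the genes. The rule used the tested genes only through the cell's UMI total, and shallow cells have noisier scores.

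Nearly the whole replication machinery outside the score was higher in top cells. Of the 11 tested genes of origin licensing, the step that loads the MCM helicase, 8 rose and 1 fell (median log2 difference 1.43, against −0.02 over all genes). Levels are given as CPM, a gene's UMIs scaled to a common library size. MCM10, which helps to activate the loaded helicase, showed the largest rise of all named genes. It was at 74.0, 58.3 and 45.2 CPM at 1 dpi and 28.4 and 41.1 CPM at 4 dpi in the top class, and at 1.24, 0.502 and 2.40 CPM at 1 dpi and 0 and 2.75 CPM at 4 dpi in the bottom class. The classes did not overlap, and the log2 difference was 5.20 ± 0.34 (SE, adjusted p = 9.2e-10), a size that depends on the low bottom counts. CDC6, which loads the helicase together with CDT1, was at 107, 106 and 76.1 CPM at 1 dpi and 73.3 and 68.0 CPM at 4 dpi in top cells. In bottom cells CDC6 was at 7.04, 9.54 and 13.2 CPM at 1 dpi and 13.8 and 13.7 CPM at 4 dpi, well below every top value, with a log2 difference of 2.95 ± 0.21 (adjusted p = 3e-09). CDT1 rose by 3.03 ± 0.23, ORC1 and ORC6, subunits of the origin recognition complex, by 3.37 and 2.76, and GMNN, the inhibitor of CDT1, by 1.43. Of the other complex subunits, ORC3 was among the 8 genes that rose, while ORC2, ORC4 and ORC5 did not share this. ORC4 fell by 0.58 on the log2 scale, but was not called with cells thinned to 5000 UMIs (−0.02), with a score of PCNA, TYMS and RRM2 alone (−0.27) or scaled to ERCC UMIs (−0.29). ORC2 and ORC5 had differences of 0.19 and −0.02 that did not pass the test.

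All 10 tested genes of helicase activation rose (median 2.32). CDC45, which with GINS turns the MCM ring into an active helicase, was at 45.7 ± 11.0 CPM in the top class and 2.10 ± 0.963 in the bottom class (mean ± SD over 5 libraries), a log2 difference of 4.39 ± 0.27 (adjusted p = 4.1e-10). The GINS subunits GINS1 and GINS2 rose by 2.68 and 3.49. Of 12 replication polymerase genes 11 rose (median 1.46), led by the primase-associated subunit POLA2 with 3.33, and the small polymerase delta subunit POLD4 fell by 0.69 on the log2 scale. Of 16 genes of clamp loading, single-strand binding and Okazaki fragment processing, 15 rose (median 2.11). Among them were FEN1, the flap endonuclease, by 2.83 ± 0.16, the clamp loader subunit RFC2 by 1.86 ± 0.17 and DSCC1 of the alternative loader by 3.56 ± 0.29. Against these, RFC1 rose by 0.66. Of 12 genes of fork protection and the replication checkpoint 8 rose and HUS1 fell by 0.49, with the classes overlapping. CLSPN, the adaptor that activates CHEK1, rose by 3.72 ± 0.21 and CHEK1 by 2.19 ± 0.16, whereas the upstream kinase ATR had a difference of 0.04 and did not pass the test (adjusted p = 0.867).

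Enzymes that make or salvage deoxynucleotides rose in 19 of 22 cases (median 1.34). TK1, thymidine kinase of the salvage route, was at 59.8, 49.98 and 30.9 CPM at 1 dpi and 115 and 111 CPM at 4 dpi in top cells and 1.66, 6.53 and 4.19 CPM at 1 dpi and 21.9 and 6.18 CPM at 4 dpi in bottom cells. The top values of TK1 were highest at 4 dpi, and the highest bottom value, in library 10, still lay under each top value (log2 difference 3.28 ± 0.27, adjusted p = 1.9e-08). RRM1, the partner of RRM2 in ribonucleotide reductase, rose by 2.54 ± 0.12, and DUT, which removes dUTP, by 2.22 ± 0.11. The more general purine and folate enzymes were nearer to the bulk. PPAT, ATIC and CAD rose by 0.45, 0.41 and 0.59, and IMPDH2, MTHFD2 and SHMT2 had differences of 0.17, 0.03 and −0.25 that did not pass.

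Of 17 genes of chromatin assembly and maintenance methylation, 16 rose and the histone chaperone ASF1A fell by 0.74 on the log2 scale. UHRF1, which brings the maintenance methyltransferase to newly copied DNA, was at 79.9, 59.2 and 50.8 CPM at 1 dpi and 100.5 and 97.8 CPM at 4 dpi in the top class and 2.90, 5.02 and 4.79 CPM at 1 dpi and 5.63 and 1.37 CPM at 4 dpi in the bottom class. The classes were far apart in each library (log2 difference 4.23 ± 0.25, adjusted p = 2.8e-10). DNMT1, that methyltransferase, rose by 1.85 ± 0.12. In the cohesion list 6 of 12 rose and 2 fell (median 0.36). The rises were largest for CDCA5 (sororin) and the S-phase acetyltransferase ESCO2, at 4.20 ± 0.27 and 3.81 ± 0.34, and the core ring subunits SMC1A, SMC3 and RAD21 rose by 1.14, 0.77 and 0.39. ESCO1, the acetyltransferase that acts throughout the cycle, and the loader NIPBL fell by 0.82 and 0.55 on the log2 scale.

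Homologous recombination and fork repair gave the highest list median, 2.64, with 23 of 25 genes higher and 0 lower. EXO1, a nuclease that resects DNA ends, was at 56.3 ± 13.9 CPM in the top class and 2.41 ± 0.727 CPM in the bottom class, a log2 difference of 4.53 ± 0.25. BRCA1 and BRCA2 rose by 3.56 and 3.12, the helicase BLM by 3.76 ± 0.22, and the Fanconi anemia genes FANCI and FANCD2 by 3.54 and 2.82. PALB2 and XRCC2 did not pass the test, at 0.52 and 0.82. Mismatch and base excision repair was divided, with 6 of 12 higher and 1 lower (median 0.48). The mismatch recognition gene MSH6 rose by 1.53 ± 0.12 and UNG, which removes uracil from DNA, by 2.82 ± 0.15, whereas MSH3 and PMS2 had 0.36 and −0.29 and did not pass. POLB, the repair polymerase, fell by 0.60 with overlapping classes, and in the 4 dpi libraries alone its difference was 0.0846.

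Among cyclins, kinases and E2F factors of the G1/S transition 17 of 22 rose and 0 fell (median 1.65). DTL, the substrate receptor of the ubiquitin ligase that degrades CDT1 on PCNA, was at 191, 144 and 168 CPM at 1 dpi and 148 and 135 CPM at 4 dpi in the top class. In the bottom class DTL was at 7.04, 7.53 and 2.40 CPM at 1 dpi and 10.6 and 6.18 CPM at 4 dpi, and the log2 difference of 4.54 ± 0.20 (adjusted p = 5.4e-12) was the largest of this list. E2F1 rose by 3.18 ± 0.19 and E2F2 by 4.36, the repressive member E2F7 by 1.75, and the partner TFDP1 by 1.59. E2F4 and E2F6 did not pass, at 0.13 and −0.31. Cyclin E2 (CCNE2) rose by 3.54 ± 0.36, and CCNE1 did not pass the gene filters of this comparison and was not tested. Of the D-type cyclins, which act earlier in G1, CCND2 rose by 0.63, and CCND1 and CCND3 did not pass, at −0.09 and 0.67.

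Several of the 12 largest rises lay outside these roles. KIAA0101, which binds PCNA, was at 209.7 ± 68.1 CPM against 12.2 ± 3.26 CPM, a log2 difference of 4.09 ± 0.14 with the smallest adjusted p of the named genes, 3.3e-13. TCF19 rose by 4.02 ± 0.27, FAM111B by 3.74 ± 0.20 and DDIAS by 3.92 ± 0.36.

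**Figure D2:**
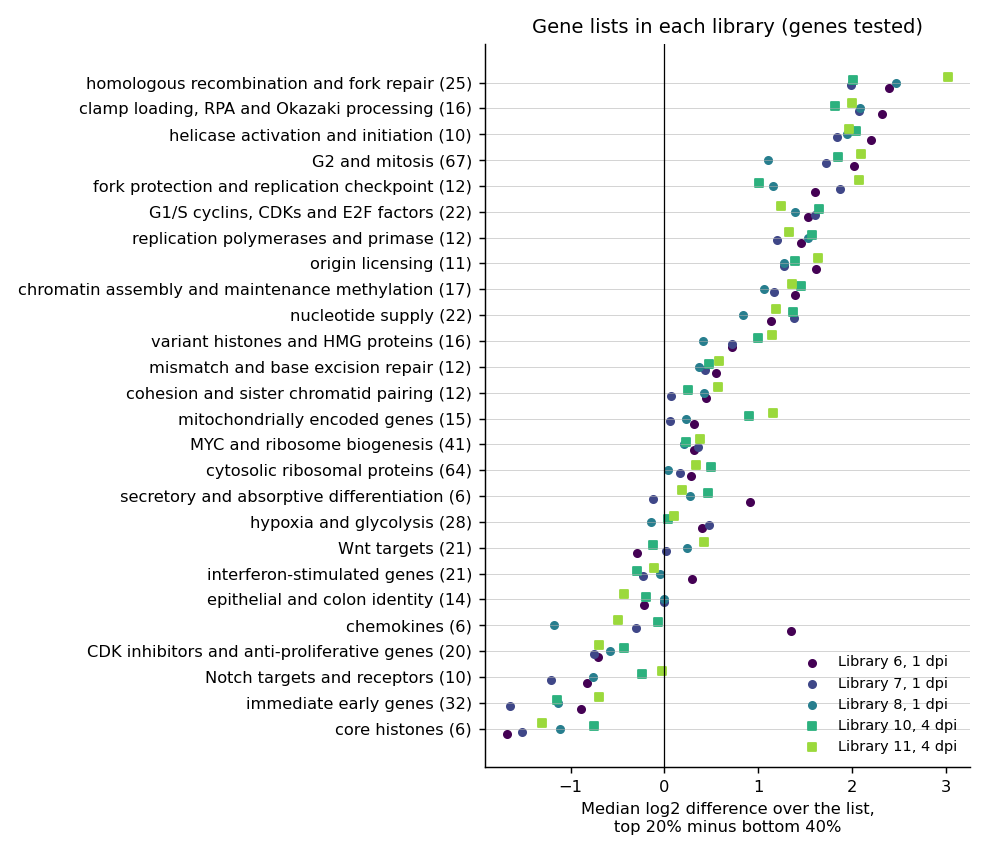
For the gene lists shown, each with at least 5 tested genes, points give the median log2 difference between the top and bottom classes (x axis) in each library, with the number of genes tested in parentheses. Circles are 1 dpi libraries and squares 4 dpi libraries. The lists of licensing, helicase activation, polymerases, clamp loading, fork protection, nucleotide supply, chromatin assembly and homologous recombination lie between 0.83 and 3.02 in every library, and the immediate early genes between −1.64 and −0.70.

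Promoters of these genes were examined because their E2F control is well known. RefSeq windows of GRCh38.p14 from 250 bases before to 50 after a gene's start were matched for 8082 of the 9814 tested genes, and were searched on both strands for the E2F core letters TTGGCGC or TTCGCGC or TTCCCGC or TTGCCGC. A match occurred in 13.1% of 27305 windows of all genes and in 22.3% of tested genes. It occurred in 52.7% of matched genes that rose by at least 2, in 39.4% of those that rose by at least 1, in 21.3% of genes not called and in 12.9% of those that fell by at least 1. Over the 9 replication and repair lists the share was 47.8% (55 of 115). The promoters of DTL, CDT1 and E2F1 are printed 5′ to 3′ in the direction of the gene, because each rose by at least 3 on the log2 scale and holds 2 matches, which stand in capitals. DTL lies at chr1:212035498-212035797, plus strand, CDT1 at chr16:88803539-88803838, plus strand and E2F1 at chr20:33686336-33686635, minus strand.
DTL: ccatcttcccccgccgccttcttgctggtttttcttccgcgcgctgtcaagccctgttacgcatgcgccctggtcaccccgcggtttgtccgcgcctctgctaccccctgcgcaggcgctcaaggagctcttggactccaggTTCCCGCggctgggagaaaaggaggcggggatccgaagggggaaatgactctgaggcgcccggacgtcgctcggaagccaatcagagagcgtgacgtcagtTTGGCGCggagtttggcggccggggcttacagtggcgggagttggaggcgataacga
CDT1: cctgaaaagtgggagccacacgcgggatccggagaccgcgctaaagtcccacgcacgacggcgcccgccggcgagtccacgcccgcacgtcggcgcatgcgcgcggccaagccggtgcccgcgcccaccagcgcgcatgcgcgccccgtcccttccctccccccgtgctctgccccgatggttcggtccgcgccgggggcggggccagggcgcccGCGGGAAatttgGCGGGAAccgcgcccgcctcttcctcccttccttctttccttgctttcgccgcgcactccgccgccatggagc
E2F1: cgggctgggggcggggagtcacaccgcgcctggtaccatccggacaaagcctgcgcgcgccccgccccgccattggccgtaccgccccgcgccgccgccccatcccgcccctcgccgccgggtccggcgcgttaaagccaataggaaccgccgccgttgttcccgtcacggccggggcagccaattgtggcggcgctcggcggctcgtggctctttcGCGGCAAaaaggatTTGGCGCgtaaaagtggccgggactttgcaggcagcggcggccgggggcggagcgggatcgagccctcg
A match describes letters and is not a measured binding site. MCM10, CDC45, KIAA0101 and TK1, which rose as much, held no match in the window used. A single window was used per gene, while the reference holds 3 windows for CDC45 and 2 each for KIAA0101 and TK1.

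Genes of G2 and mitosis were also higher in top than in bottom cells, and were mixed against the middle class. Against the bottom class 63 of 67 tested genes rose and 0 fell, with a median of 2.00. The kinase CDK1 was at 139, 121 and 99.1 CPM at 1 dpi and 199 and 184 CPM at 4 dpi in top cells and 5.38, 12.6 and 14.4 CPM at 1 dpi and 23.8 and 4.81 CPM at 4 dpi in bottom cells. The classes of CDK1 were apart in each library, with a log2 difference of 3.63 ± 0.23 (adjusted p = 5.9e-10). MKI67, the proliferation marker, rose by 3.03 ± 0.22 and TOP2A, topoisomerase II alpha, by 2.98 ± 0.28. UBE2S, HMMR, ARL6IP1 and G2E3 did not pass, at 0.07, 0.45, 0.06 and −0.21. CKS2 and TUBB4B rose, but were not called with a score of the MCM genes alone (0.05 and 0.03). Both classes came from the same libraries, so these comparisons share their top cells with the one that follows.

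Between the top and middle classes 10135 genes were tested, of which 2943 (29.0%) were called, 1482 (14.6%) higher and 1461 (14.4%) lower in top cells. Without TMM scaling these counts were 785 and 2144. In the G2 and mitosis list 26 of 75 genes rose, 14 fell and the median was 0.09, whereas homologous recombination had 21 of 25 higher (median 1.25) and clamp loading 14 of 16 (median 1.00). CCNB1, cyclin B1, was at 62.1 ± 20.4 CPM in top, 104 ± 44.04 in middle and 24.8 ± 10.0 in bottom cells (mean ± SD), so that it rose against the bottom class by 1.34 ± 0.16 and fell against the middle class by 0.70 on the log2 scale (adjusted p = 0.00131). Its rise against the bottom class was not called with cells thinned to 5000 UMIs (0.77) or with a score of the MCM genes alone (0.43). The other mitotic genes that fell against the middle class included HMMR, AURKA, CCNB2 and PLK1, with log2 differences of −1.30, −1.19, −1.14 and −0.96. These code for the spindle protein RHAMM, the Aurora A and Polo-like 1 kinases and cyclin B2. In contrast, MYBL2, CENPU and SPC24 rose against the middle class by 1.77, 1.51 and 1.31, and TOP2A and CCNA2 did not pass, at 0.15 and 0.36. The middle class thus held the highest levels of part of the mitotic genes, as the plot of both comparisons shows.

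**Figure D3:**
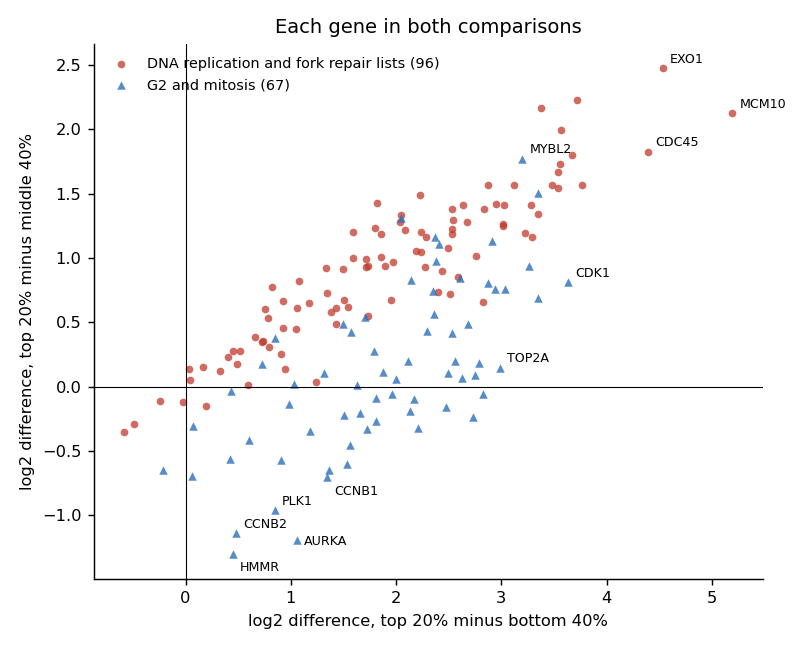
Each point is a gene, with its log2 difference between top and bottom classes (x axis) and between top and middle classes (y axis). Red circles are the 96 genes of 6 lists on DNA replication and fork repair and blue triangles the 67 of the G2 and mitosis list. The 6 lists are licensing, helicase activation, clamp loading, fork protection, nucleotide supply and homologous recombination. The polymerase list is not shown. Triangles reach down to −1.30 (HMMR) on the y axis while their x values stay mostly above 0.

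The promoters of the mitotic genes carried other letters. The CHR element, searched as TTTGAA and TTCGAA on both strands, was in 72.4% of 58 matched windows of the G2 and mitosis list, in 8.70% of the replication and repair lists and in 10.9% of tested genes. CCAAT was in 72.4% of the mitotic windows and 37.3% of tested genes, while E2F letters were in 25.9%. TOP2A (chr17:40417847-40418146, minus strand) and MKI67 (chr10:128126374-128126673, minus strand) are printed as mitotic genes with 2 CHR matches each, in capitals.
TOP2A: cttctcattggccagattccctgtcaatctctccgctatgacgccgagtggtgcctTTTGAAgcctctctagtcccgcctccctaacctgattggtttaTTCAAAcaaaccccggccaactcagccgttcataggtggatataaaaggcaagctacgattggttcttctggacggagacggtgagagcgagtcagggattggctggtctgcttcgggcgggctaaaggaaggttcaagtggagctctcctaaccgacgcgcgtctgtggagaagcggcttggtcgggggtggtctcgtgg
MKI67: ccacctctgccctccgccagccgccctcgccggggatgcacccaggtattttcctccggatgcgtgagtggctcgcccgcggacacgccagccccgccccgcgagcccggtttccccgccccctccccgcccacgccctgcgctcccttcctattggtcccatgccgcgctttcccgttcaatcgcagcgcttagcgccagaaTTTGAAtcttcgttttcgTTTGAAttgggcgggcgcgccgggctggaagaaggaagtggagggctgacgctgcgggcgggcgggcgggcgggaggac

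The few histone genes that could be tested were mostly lower in top cells. Of 41 genes of the list, which holds core and linker histones, 6 could be tested. Of these 4 fell and 0 rose (median −1.36), and the falls were of both kinds. HIST1H2BD was at 0, 4.63 and 0.793 CPM at 1 dpi and 10.6 and 4.25 CPM at 4 dpi in top cells and 13.7, 29.1 and 12.6 CPM at 1 dpi and 25.03 and 33.0 CPM at 4 dpi in bottom cells. The top class of library 6 held no UMI of it, no top value reached a bottom value, and the log2 difference was −2.66 ± 0.40 (adjusted p = 3.2e-05). H1F0, a linker histone made independently of replication, fell by 1.65. HIST1H1C, also a linker histone, and HIST1H2BK, a core histone like HIST1H2BD, fell by 1.59 and 1.14. Replication-dependent histone mRNAs lack a poly(A) tail, and the protocol captured polyadenylated RNA. HIST1H4C did not pass over all libraries, at 0.35, but was called higher with thinned cells (0.46), with the 15% mitochondrial maximum (0.62), scaled to ERCC UMIs (0.64) and without library 8 (0.52). Of 16 variant histone and HMG genes 13 rose, among them HMGB1 by 0.90 ± 0.10 and STMN1, a tubulin-binding protein grouped with them here, by 1.80 ± 0.13, and H3F3B, which codes for the replication-independent histone H3.3, fell by 0.86 (adjusted p = 7.3e-07).

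Genes that restrain the cycle were more often lower than higher in top cells. Of 20 CDK inhibitors and anti-proliferative genes, 13 fell and 2 rose (median −0.75). CDKN1B, which codes for p27, was at 42.0, 46.3 and 48.4 CPM at 1 dpi and 76.8 and 79.3 CPM at 4 dpi in the top class and 124, 91.9 and 107 CPM at 1 dpi and 125 and 93.4 CPM at 4 dpi in the bottom class. The classes did not overlap, and the log2 difference was −0.95 ± 0.16 (adjusted p = 9.1e-05). CDKN1A (p21) fell by 1.01, CDKN2B (p15) by 2.12, and TXNIP, an inhibitor of glucose uptake, by 1.17, from 744 ± 110.0 to 331 ± 61.1 CPM. CDKN2A and BTG3 rose by 0.36 and 1.01. With the score of PCNA, TYMS and RRM2, CDKN1B and CDKN1A were not called (−0.53 and −0.51), nor was CDKN1B in the 4 dpi libraries alone (−0.47). With cells over 15% mitochondrial UMIs left out, 8 of 21 tested fell and 1 rose.

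Immediate early genes, which respond within minutes to growth factors or stress, fell in 30 of 32 cases and rose in 0 (median −1.17), and in 26 of 33 against the middle class. NR4A1, an orphan nuclear receptor, was at 18.4, 36.1 and 41.2 CPM at 1 dpi and 21.3 and 28.3 CPM at 4 dpi in the top class and 96.5, 350.0 and 138 CPM at 1 dpi and 50.1 and 50.1 CPM at 4 dpi in the bottom class. Library 7 had by far the highest bottom value, and the classes did not overlap (log2 difference −2.09 ± 0.23, adjusted p = 1.2e-06). Without library 7 the difference was −1.66. KLF10, ATF3 and JUN, transcription factors of the list, fell as well, with log2 differences of −1.58, −1.46 and −1.22. NR4A2 and CTGF did not pass, at −0.59 and −0.26. EGR1, IER2 and FOS were not called with the score of PCNA, TYMS and RRM2 (−0.64, −0.62 and −0.21). FOS and EGR3 were not called with the 15% mitochondrial maximum (−0.13 and −0.67). With cells thinned to 5000 UMIs 21 of 26 genes of the list fell. These genes are also known to respond to tissue dissociation, which every plate went through, and no value here separates that from other sources.

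**Figure D4:**
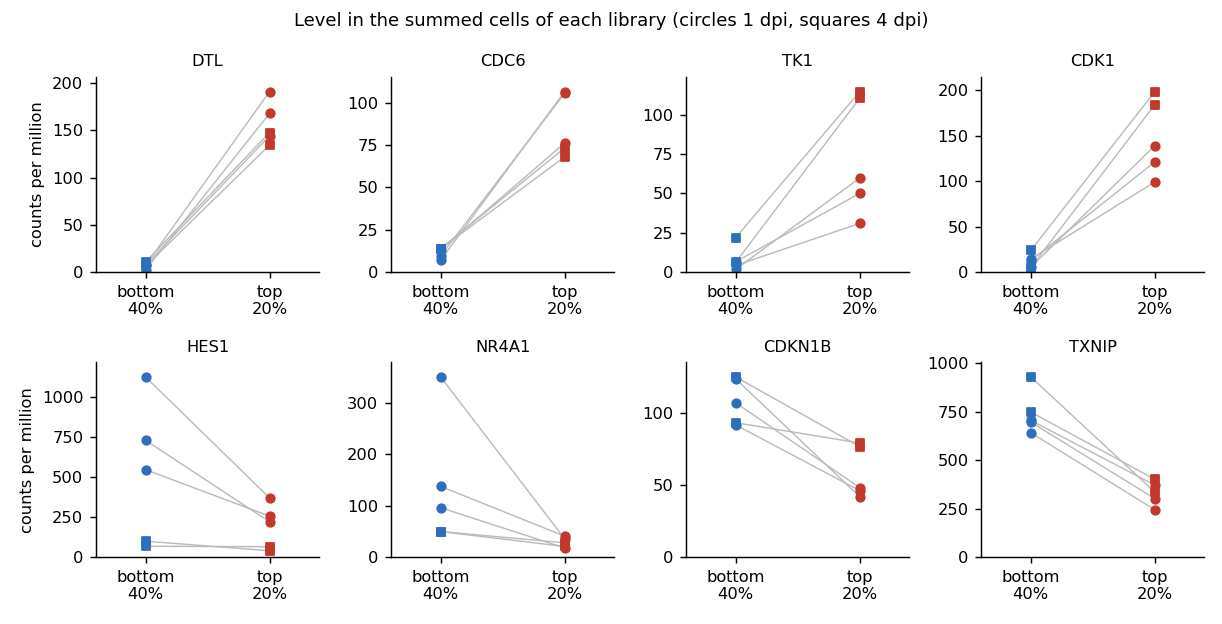
Level of 8 genes (y axis, CPM, from 0) in the summed cells of the bottom and top classes (x axis). Lines join the classes of a library. DTL, CDC6, TK1 and CDK1 are higher in the top class of all 5 libraries and HES1, NR4A1, CDKN1B and TXNIP lower.

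The largest falls were ranked among called genes that were lower in all 5 libraries and had a mean of at least 20 CPM in the bottom class. They were FBN2, a microfibril component, with −2.79 ± 0.35, HIST1H2BD, and the engulfment adaptor GULP1 with −2.53 ± 0.41. They were followed by ARL14 at −2.45 ± 0.44, the neuropeptide precursor VGF at −2.32 ± 0.27 and the clock repressor BHLHE41 at −2.20 ± 0.18. Most of these were low genes. FBN2 was at 32.9 ± 20.7 CPM in bottom cells and 3.89 ± 1.22 in top cells, and GULP1 overlapped between classes.

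Genes of the Notch pathway moved apart. The list holds targets, receptors and ligands, and of its 19 genes 10 could be tested. Of these 6 fell and 3 rose (median −0.86). The ligand JAG2 was among those that rose, but was not called with thinned cells (0.57) or with the score of PCNA, TYMS and RRM2 (0.28). HES1, the main effector of Notch, was at 256, 369 and 221 CPM at 1 dpi and 41.4 and 66.6 CPM at 4 dpi in the top class and 545, 1122 and 728 CPM at 1 dpi and 101 and 69.4 CPM at 4 dpi in the bottom class. It was lower in top cells in each library, but by little in library 11, and both classes were far lower at 4 dpi than at 1 dpi. Its log2 difference was −1.27 ± 0.16 (adjusted p = 3.7e-06), and it did not pass with cells over 15% mitochondrial UMIs left out (−0.50) or with a score of PCNA, TYMS and RRM2 alone (−0.37). HES5 fell by 2.35 on the log2 scale over all libraries, but its values overlapped. In top cells HES5 was at 7.70, 27.8 and 39.7 CPM at 1 dpi and 4.73 and 4.25 CPM at 4 dpi and in bottom cells at 135, 151 and 119 CPM at 1 dpi and 1.25 and 4.12 CPM at 4 dpi, so that its fall lay in the 1 dpi libraries, and DESeq2 did not call it (−1.47). HES6, an antagonist of HES1, rose by 1.32 ± 0.20. The list's median was between −1.21 and −0.76 in 1 dpi libraries and −0.24 and −0.03 in 4 dpi libraries, a difference that was not tested for the list, and with cells thinned to 5000 UMIs 5 genes remained testable, of which 1 rose and 1 fell (median 0.08).

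Wnt targets showed no common direction, with 7 of 21 higher and 3 lower (median 0.29, and −0.05 with thinned cells). AXIN2, the standard readout of beta-catenin, was at 176 ± 23.3 CPM in top and 163 ± 23.0 CPM in bottom cells and did not pass the test (adjusted p = 0.554). PROX1 rose by 1.01 ± 0.18, and SOX9, EPHB3 and MYC fell by 0.92, 1.34 and 0.56 on the log2 scale. In the 4 dpi libraries alone PROX1, EPHB3 and MYC were not called (0.44, −0.35 and −0.20), nor was PROX1 with the score of PCNA, TYMS and RRM2 (0.54). Of 41 genes of MYC and ribosome biogenesis 18 rose and 2 fell (median 0.28), with TCOF1 first at 1.49. Cytosolic ribosomal protein genes rose in 35 of 64 cases with a median of 0.27, but without TMM scaling 12 rose and 2 fell, and with thinned cells 11 and 1.

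Hypoxia and glycolysis genes divided by role, with 12 of 28 higher and 8 lower (median 0.11, and −0.02 without TMM scaling). All 12 rises were of glycolytic enzymes. LDHA, lactate dehydrogenase, was at 1361, 1335 and 944 CPM at 1 dpi and 1258 and 1329 CPM at 4 dpi in top cells and 591, 588 and 568 CPM at 1 dpi and 591 and 607 CPM at 4 dpi in bottom cells, a log2 difference of 1.07 ± 0.09 (adjusted p = 5.3e-08), and GAPDH and ENO1 rose by 0.62 and 0.65. The 8 falls were of other genes that hypoxia is known to induce, among them VEGFA, NDRG1, DDIT4 and KDM3A, by 1.41, 1.42, 1.39 and 1.25 on the log2 scale.

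Of 45 interferon-stimulated genes 21 could be tested, of which 2 rose and 5 fell (median −0.11, and 0.18 when scaled to ERCC UMIs). Over all tested genes 20.2% were called higher and 20.2% lower, so counts this small say little about the list. OAS3 rose by 2.46 ± 0.34 and IFITM2 by 0.84 ± 0.12, while IRF7, IRF1, MX2 and HLA-E fell by 1.76, 1.02, 1.00 and 0.84 on the log2 scale. With thinned cells IRF1 and HLA-E were not called (−0.42 and −0.20), and in the 4 dpi libraries alone MX2 was not (−0.99). Of 28 chemokine genes 6 could be tested, and edgeR called 0 of them, with 1 at an unadjusted p under 0.05 and 0 called by DESeq2. Their median ran from −1.17 in library 8 to 1.34 in library 6, and CXCL2 and CCL20 had differences of −1.04 and 0.57. Of 14 epithelial and colon genes 1 rose and 4 fell (median −0.28, and 0.02 when scaled to ERCC UMIs). The rise was of EPCAM, by 0.27, and was not called with thinned cells (0.16). The falls included ELF3 by 0.98 and CDX2 by 1.14, the latter not called in the 4 dpi libraries alone (−1.10). In the list of secretory and absorptive differentiation 3 of 6 rose, led by PHGR1 with 0.72. The calls of the other two, TFF3 and KLK6 (0.58 and 0.43), were lost with thinned cells (0.49 and 0.30) and with the score of PCNA, TYMS and RRM2 (0.36 and 0.18).

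Mitochondrially encoded genes differed between classes mainly at 4 dpi. The median mitochondrial share of UMIs was 13.6%, 11.7% and 11.2% in top cells at 1 dpi and 15.7% and 17.4% at 4 dpi. In bottom cells it was 12.7%, 10.7% and 9.48% at 1 dpi and 9.03% and 10.2% at 4 dpi. The top class was thus higher by 0.858, 0.962 and 1.75 points at 1 dpi and by 6.70 and 7.20 points at 4 dpi. All 15 mitochondrially encoded genes rose in top cells over all libraries (median 0.54). Of the 15, 11 were called without library 10, without library 11 or with the MCM score, 8 in the 1 dpi libraries alone, 6 with the score of PCNA, TYMS and RRM2 and 4 for the top 10% against the bottom 20%.

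The difference between time points was tested gene by gene with an interaction term. Of 9814 genes 61 (0.622%) passed, 39 with a larger top-minus-bottom difference at 4 dpi (0.397%) and 22 with a smaller one (0.224%). Without TMM scaling the split was 37 and 103, with the median of all genes at −0.17. Of the 15 mitochondrially encoded genes 11 were among the 39 (median 0.81). MT-CO2, a subunit of complex IV, was 0.23 higher in top cells at 1 dpi and 1.17 at 4 dpi on the log2 scale, an interaction of 0.94 ± 0.13 (adjusted p = 0.00092). This depended on which cells and libraries were used. With cells over 15% mitochondrial UMIs left out 0 of 15 passed in edgeR (4 at an unadjusted p under 0.05, median 0.43), with the score of PCNA, TYMS and RRM2 alone 0 of 15 (2 unadjusted, median 0.42), without library 11 1 of 15 and without library 7 5 of 15. Left out of the sums altogether, mitochondrial genes changed the other counts from 28 and 22 to 26 and 18. DESeq2 also gave 11 of 15. A high mitochondrial share is also a common sign of damaged cells, and its part in the result was not tested.

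HIST1H4C, which codes for histone H4, had the smallest p of all genes. HIST1H4C was at 355, 470.2 and 389 CPM at 1 dpi and 677 and 662 CPM at 4 dpi in top cells and 383, 542 and 489 CPM at 1 dpi and 288 and 281 CPM at 4 dpi in bottom cells. It was slightly lower in top cells of each 1 dpi library and more than double the bottom value at 4 dpi (interaction 1.45 ± 0.16, adjusted p = 6.1e-05). The mitotic genes CENPF, UBE2C and CKS2 and the chaperone NASP also had larger differences at 4 dpi, with interactions of 1.61 ± 0.37, 1.77 ± 0.37, 1.01 ± 0.22 and 0.99 ± 0.22. KRT19, a keratin of simple epithelia, went the other way. It was 0.30 in top cells at 1 dpi and −0.94 at 4 dpi on the log2 scale (interaction −1.24 ± 0.17, adjusted p = 0.00092), and LMNA, which codes for lamin A/C, went from 0.31 to −0.90. TNFRSF12A, ANXA1 and EMP1 shifted the same way as KRT19, with interactions of −1.14 ± 0.20, −1.14 ± 0.22 and −1.70 ± 0.31.

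**Figure D5:**
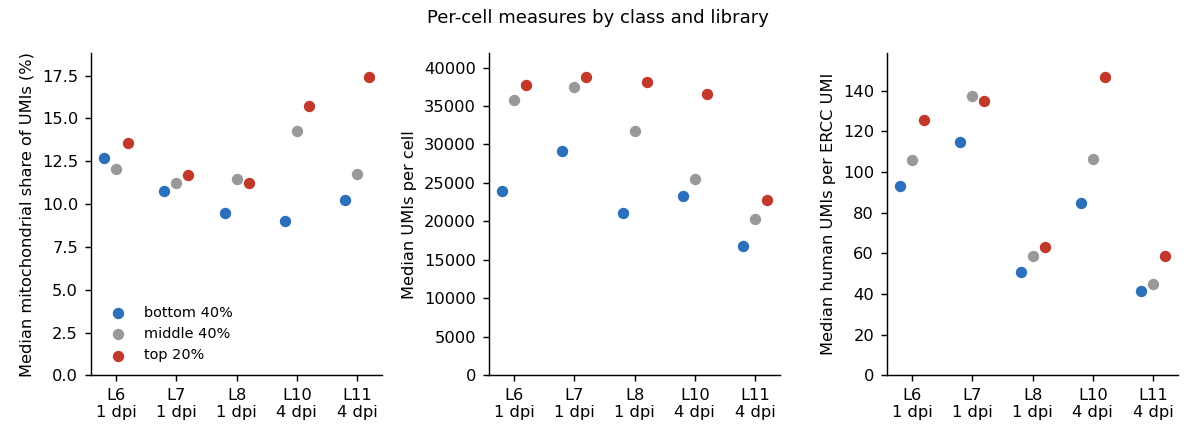
Median mitochondrial share of UMIs in percent, median UMIs per cell and median human UMIs per ERCC UMI (y axes, from 0) by library and class, 1 point per class. The top class is above the bottom class in every library for all 3 measures, and its mitochondrial share is highest in the 4 dpi libraries, at 15.7% and 17.4%.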

How the data were processed

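Single-cell RNA was measured in 5 libraries of 384 wells each. The authors had the plates sequenced on a NextSeq 500, aligned reads with BWA to hg38 according to the submitters' processing notes, and deposited raw UMI counts per gene and well, with no normalization. No BWA version is stated in the sources. The files list only genes with at least 1 UMI. No doublet caller was run.

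Wells were filtered as in the authors' code, with ERCC rows counted among genes. UMIs were summed per library and class, and genes listed in all 5 libraries that passed filterByExpr were fitted in edgeR 4.0.16 (R 4.3.3) with TMM scaling and the library as a block, score genes left out. The difference between time points was an interaction of class and time. Correlations of the classes' deviations within a library were 0.23 to 0.35, and each library was its own best match in 5 of 5. On data simulated from the real means for these comparisons, 200 genes changed by 1 on the log2 scale were called in 89.5% of cases for top against bottom (9814 genes), 88% for top against middle (10135) and 35% for the interaction (9814). Unchanged genes made up 4.79%, 3.83% and 1.41% of the calls. Apart from the change, the simulation gave each gene the same mean level in every library and a spread taken from the fitted trend. The shares describe that simpler setting and not the real data. Sign-flip tests of per-cell measures were run but are not quoted, since the UMI total enters the score.

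The members and all 29 gene lists were chosen with earlier results of these data known, so no count over a list is independent support. Genes named are the largest rise and fall and up to 4 high genes of each list, the 3 strongest interaction calls each way and a fixed set of cycle, Notch and Wnt genes. Also named are the 12 largest rises and falls with the same sign in all 5 libraries and a mean of at least 20 CPM in the higher class. Other list members, CENPF, UBE2C, ANXA1 and EMP1 are examples chosen after their values were seen. Promoter sequences and windows came from RefSeq (GRCh38.p14). Symbols are those of the files. The list of well barcodes was not used. A gene list and some genes are not reported here. Alternatives covered DESeq2 1.42.0, scaling, filters, other scores and classes, thinning of each cell to 5000 UMIs (11 cells were shallower) and omission of each library.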

Additional observations from a re-analysis of the deposited data

Results flagged for a closer look

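12 of the named genes had a top-minus-bottom difference that changed between 1 dpi and 4 dpi by the interaction test in edgeR (adjusted p under 0.05). Of these, 6 were named because they were the 3 strongest such calls each way, and 0.622% of all tested genes passed. The changes are given on the log2 scale, with those larger at 4 dpi positive. Mitochondrially encoded genes were MT-CO2 with 0.94, MT-ND3 with 0.93, MT-ATP6 with 0.95 and MT-ND4 with 0.75. HIST1H4C had 1.45 ± 0.16, the chaperone of new histones NASP 0.99 ± 0.22, the mitotic CDK subunit CKS2 1.01 ± 0.22 and HES6 1.25 ± 0.27. EGR1, an immediate early gene, had 1.26 ± 0.27, since it was −1.91 in top cells at 1 dpi and −0.65 at 4 dpi. The changes of KRT19, LMNA and TNFRSF12A were −1.24 ± 0.17, −1.21 ± 0.17 and −1.14 ± 0.20. KRT19 and LMNA were higher in top cells of all 3 libraries at 1 dpi and lower in both libraries at 4 dpi. Groups of 3 and 2 libraries were too small to look for a library that stands apart.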

How the results depend on the processing

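Over the 2 comparisons of classes, the library block was part of the model, and without it 1960 and 1986 genes were higher and lower against the bottom class and 1429 and 1435 against the middle class. No pairing of libraries across time points was possible because their numbers differ. With cells thinned to 5000 UMIs 510 and 451 genes were called of 4460 tested. Of 2279 calls testable in both, 915 were called again, and 0 of these 915 had the opposite sign. Signs of the calls that were not repeated were not counted. Against the bottom class, counts of higher and lower genes were 1073 and 903 with the score of PCNA, TYMS and RRM2, 1307 and 1241 with a mitochondrial maximum of 15%, 1248 and 1242 for the top 10% against the bottom 20%, and 3505 and 749 scaled to ERCC UMIs, while 1162 were lower in the 4 dpi libraries alone. Leaving out a library gave 1544 to 1828 higher and 1488 to 1902 lower.

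Against the middle class, counts were 237 and 184 with thinned cells, 919 and 816 with the MCM score, 895 and 747 with the PCNA, TYMS and RRM2 score and 811 and 698 with the 15% maximum. Without TMM scaling 785 were higher, and DESeq2 called 817 lower. Without libraries in turn the ranges were 948 to 1389 and 922 to 1333, the lowest without library 6.

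The 39 and 22 interaction calls were the least stable. DESeq2 gave 22 and 7, no filter on low counts 60 and 97, no replicate block 20 and 10, thinned cells 17 and 9, a score without mitochondrial UMIs in the denominator 71 and 78, the MCM score 101 and 56, and the PCNA, TYMS and RRM2 score 9 and 9. Without TMM scaling 103 were lower and with more than 3000 genes per cell 39. Leaving out a library gave 8 to 50 and 9 to 36. Counts moved by over 1.5 times without library 7 (17 and 13), library 8 (21 higher), library 6 (9 lower), library 10 (36 lower) and library 11 (8 and 14). The cause of these changes was not tested.

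As means over cells, UMIs per cell differed by 0.39 on the log2 scale instead of 0.60. Calls against the bottom class were lost by 51 named genes with the PCNA, TYMS and RRM2 score, 28 with thinned cells, 22 with the 15% maximum and 21 for the top 10% against the bottom 20%. HUS1, POLB, ATIC, RAD21, CDKN2A and NIPBL each lost theirs under 4 to 9 alternatives. Among named genes called in the main fit or the alternative, directions reversed only for POLB, KRT19 and LMNA. POLB did so in the 4 dpi libraries alone (0.0846) and KRT19 and LMNA in the 1 dpi libraries alone (0.30 and 0.31). Reversals of genes called in neither were not counted, such as HIST1H4C at −0.21 in the 1 dpi libraries alone. Added after seeing the data, a filter without ERCC rows, a score without TYMS, sums without mitochondrial genes and the libraries of 1 flow cell gave 1997, 1995, 1983 and 1717 higher genes.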

Other observations

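Gene groups outside the lists were chosen after their values were seen, so their counts are descriptions. Of 12 tested genes of the amino acid and integrated stress response 11 were lower in top cells and 0 higher (median −0.88). DDIT3, which codes for the stress transcription factor CHOP, differed by −2.02 ± 0.14 (adjusted p = 1.4e-09 by edgeR), its target TRIB3 by −1.75 ± 0.15 and the cystine transporter SLC7A11 by −1.47 ± 0.13. ATF4, the factor that drives this response, differed by −0.76 ± 0.10 and was lower in 5 of 5 libraries. PSAT1, which makes serine, was at −0.15 ± 0.12 and did not pass the test.

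Of 12 tested circadian clock genes 9 were lower in top cells and 0 higher (median −1.25). The repressors PER1 and PER2 differed by −1.87 ± 0.18 and −1.42 ± 0.20, NR1D1, a nuclear receptor of the clock, by −1.78 ± 0.16 and its target ARNTL, the positive arm, by −1.32 ± 0.20. CLOCK, PER3 and CRY2 did not pass, at −0.22 ± 0.12, −0.29 ± 0.24 and −0.86 ± 0.37.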
